A study of Homo sapiens with 4 samples.

Results

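The genes described here encode the proteins of the cytoplasmic ribosome, and the data are the bases of their RNA that were listed as mutated in RNA recovered with PARP1. Members were the protein-coding genes whose symbol is RPL or RPS followed by a digit, RPLP0 to RPLP2 or RPSA, without RPS6K kinases and pseudogenes. This rule took 91 of 19951 protein-coding genes in GENCODE release 29, and 67 of the 91 had at least 1 site in either list. Of the 91, 77 are the core genes of the human ribosome, 31 of the small subunit and 46 of the large subunit, and the other 14 are paralogs, Y-linked copies, readthrough genes and 1 gene whose symbol only resembles the rest (RPS19BP1). The core genes received 131 of 166248 sites in IP 1 (0.0788%) and 111 of 229782 sites in IP 2 (0.0483%).

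The study sequenced RNA of the human kidney line HK-2, derived from proximal tubule epithelium and immortalised, in 2 immunoprecipitations of PARP1 (IP 1 and IP 2), for which a Flag antibody was used, and in 2 inputs. All 4 samples are of this line with no genotype or treatment named, the labels do not say which protein carried the Flag tag, and no control IP is described. Each site is 1 base on 1 strand with a count of the sequenced tags that cover it and of the tags that carry a substitution, deletion or insertion there. The inputs were not analysed here, so a site shows RNA present in an IP and not enrichment over input. The labels do not state that separate cultures were used for the IPs, so differences between them may be technical. The lists count 419675 tags at sites of IP 1 and 572870 at those of IP 2, which is not the depth of the libraries. Set beside the cell line label, 8 of 12 tubule markers (66.7%), 4 of 5 epithelial markers (80%) and 2 of 5 markers of other cells (40%) had a site in both IPs, where 55.4% of all protein-coding genes did and genes of like span did at 74.7%, 54.1% and 64.6%. These counts do not check the label, since a site does not measure a level.

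A ribosome is made of ribosomal RNA and of proteins that each enter it in a single copy, except the stalk proteins. Ribosomal protein genes are short, strongly transcribed in growing cells and interrupted by introns, many of which hold small nucleolar RNAs (snoRNAs) that guide the modification of ribosomal RNA. PARP1 is an abundant enzyme of the nucleus that is activated by DNA breaks, modifies proteins with chains of ADP-ribose, binds RNA and is found in nucleoli, where ribosomal subunits are assembled.

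The letters around 10 sites are shown because the results turn on them. The first 7 windows lie around core gene sites that both IPs listed at the same base and strand. The next pair lies around RPL37 insertions beside splice junctions, and the last line, for RPL14, shows the exon site with the most mutated tags in IP 1 (a tie at 3 mutated tags, taken by symbol). Each window was read from GENCODE release 29 transcripts (GRCh38), 5′ to 3′ on the strand of the gene, and the capital marks the listed base, except in RPL22, where capitals mark the whole run of A that holds it.
RPL11 intron, chr1:23695600-23695628, plus strand: ccaaagcaaacttaCagtatggctgtgtg
RPL22 coding sequence, chr1:6197711-6197739, minus strand: ggggggcAAAAAAAAgaagcaagttctga
RPL31 intron, chr2:101004514-101004542, plus strand: gagcattgcagagaGaggaagcttggcag
RPLP0 intron, chr12:120198732-120198760, minus strand: ccccactattatctGgttcagagtgatgt
RPS12 5′ UTR, chr6:132814733-132814761, plus strand: gcgttcaagattcaActtcacccgtaacc
RPS15A intron, chr16:18784419-18784447, minus strand: atggagaaccccgtGtctacctaaaatac
RPS6 first base of an intron, chr9:19379472-19379500, minus strand: gtgaagaatggaagGtaaaagttgacaaa
RPL37 first base of a coding exon, site at base 40834606 of chromosome 5, minus strand, joined to the exon before: gcagaagcgagatgAcgaagggaacgtca
RPL37 last base of the same exon, site at base 40834471 of chromosome 5, minus strand, joined to the next exon: agcgcaagagaaagTataactggagtgcc
RPL14 3′ UTR, chr3:40464381-40464409, plus strand: aatatggatgatttCggattacctgttct

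Most core genes appeared in both lists. IP 1 named 52 of the 77 (67.5%), IP 2 named 50 (64.9%), and 42 were named in both (54.5%, 95% exact Clopper-Pearson interval 42.8 to 65.9), where a gene counts as named when a list assigns it a site on either strand. Over all protein-coding genes, 55.4% were named in both IPs, so the share of core genes was near the background. Core genes are short, however, with a median span of 5.38 kb (1.36 to 81.0 kb) against 27.1 kb for protein-coding genes, and longer genes were named more often. For each core gene the share was also taken over the protein-coding genes of its span bin, and these shares averaged 24.7%, which lies below the interval of the core genes. This average is what "of the same span" means below. All intervals here treat sites and genes as independent and cover counting error only, because amplified tags without molecular identifiers are not separate molecules.

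**Figure D1:**
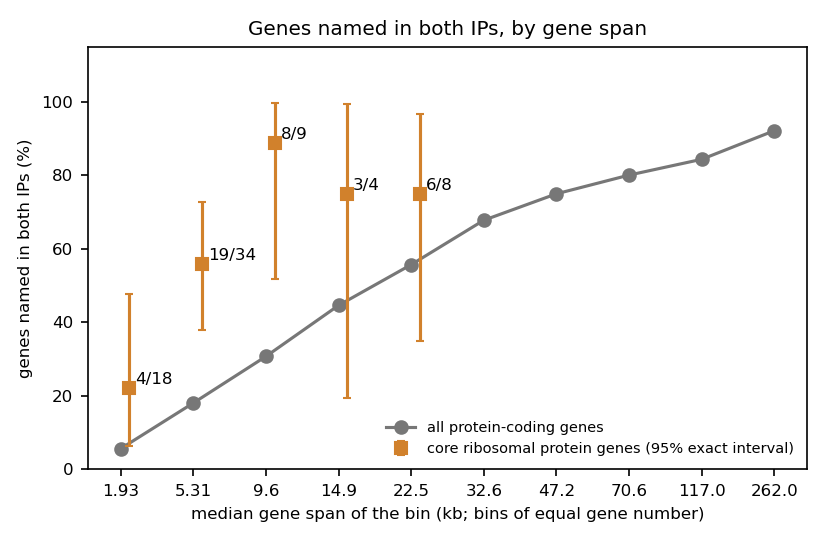
Share of genes named in both IPs (y axis, percent) against the median gene span of each of 10 bins of protein-coding genes (x axis, kb, bins spaced evenly). Grey circles are all protein-coding genes of the bin, orange squares the core ribosomal protein genes with 95% exact intervals, and the fractions are genes named over genes in the bin. In the 3 shortest bins, 4 of 18, 19 of 34 and 8 of 9 core genes were named in both, against 5.56%, 18.0% and 30.7% of all genes, and bins with fewer than 4 core genes carry no square.

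The difference from genes of like span was seen in the shortest bins, which hold 61 of the 77 core genes. In bins of longer genes the values were 3 of 4 core genes against 44.6% and 6 of 8 against 55.7%, with wide intervals that include the background. In the remaining bins that hold core genes, 1 of 2, 0 of 1 and 1 of 1 were named in both. Expression level was not measured here, and its part in these shares was not tested. Small and large subunit genes were named in both IPs at nearly equal shares, 17 of 31 (54.8%) and 25 of 46 (54.3%).

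Counted in either IP, 60 of 77 core genes were named (77.9%, interval 67.0 to 86.6), against 71.8% of all protein-coding genes and 46.2% of those of the same span. The 42 genes of both lists included RPSA, the laminin receptor protein of the small subunit, RPS6, the target of S6 kinases, RPS27A, which is made as a fusion with ubiquitin, RPL5 and RPL11, which bind 5S ribosomal RNA and the p53 regulator MDM2, and RPLP0, the base of the ribosomal stalk. Their median span was 7.09 kb. IP 1 alone named 10 genes (median span 4.32 kb), among them RPL10, RPL10A, RPL13, RPL29, RPL4, RPLP1, RPS20, RPS23 and RPS27. IP 2 alone named 8 (5.18 kb), RPL21, RPL23A, RPL24, RPL35, RPL9, RPLP2, RPS10 and RPS16. For RPS10 this follows the assignment of the lists, which gave an IP 1 site inside RPS10 to the readthrough gene RPS10-NUDT3. The 17 genes named in neither had a median span of 4.07 kb and included RPL13A, RPL17, RPL26, RPL27A, RPL39, RPL41, RPL6, RPL7A, RPS15, RPS18, RPS21, RPS25, RPS26, RPS28 and RPS9.

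The 4 longest genes with no site were RPS9 (48.3 kb), RPL27A (32.3 kb), RPL6 (13.6 kb) and RPL26 (5.74 kb). RPL26 is known to bind p53 messenger RNA, and RPL27A hosts 2 snoRNA genes. A site needs tags that carry a mutation, so an unlisted gene may still have had tags.

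By the regions in the deposited lists, core genes stood above genes of the same span in introns, while in exons the interval included those genes. An intron site in both IPs was found for 32 of 77 core genes (41.6%, interval 30.4 to 53.4), against 46.2% of all protein-coding genes and 14.8% of genes of the same span. An exon site in both IPs was found for 8 (10.4%, interval 4.59 to 19.4), against 14.6% of all and 7.35% of genes of the same span, the last of which lies within the interval. Among the 8 were RPL14, RPL19, RPL22, RPL28, RPL37, RPS12 and RPS29. These shares were not computed under other definitions of an exon. With exons of coding transcripts, sites per length in core genes were above other short genes in exons and introns alike, as given below.

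**Figure D2:**
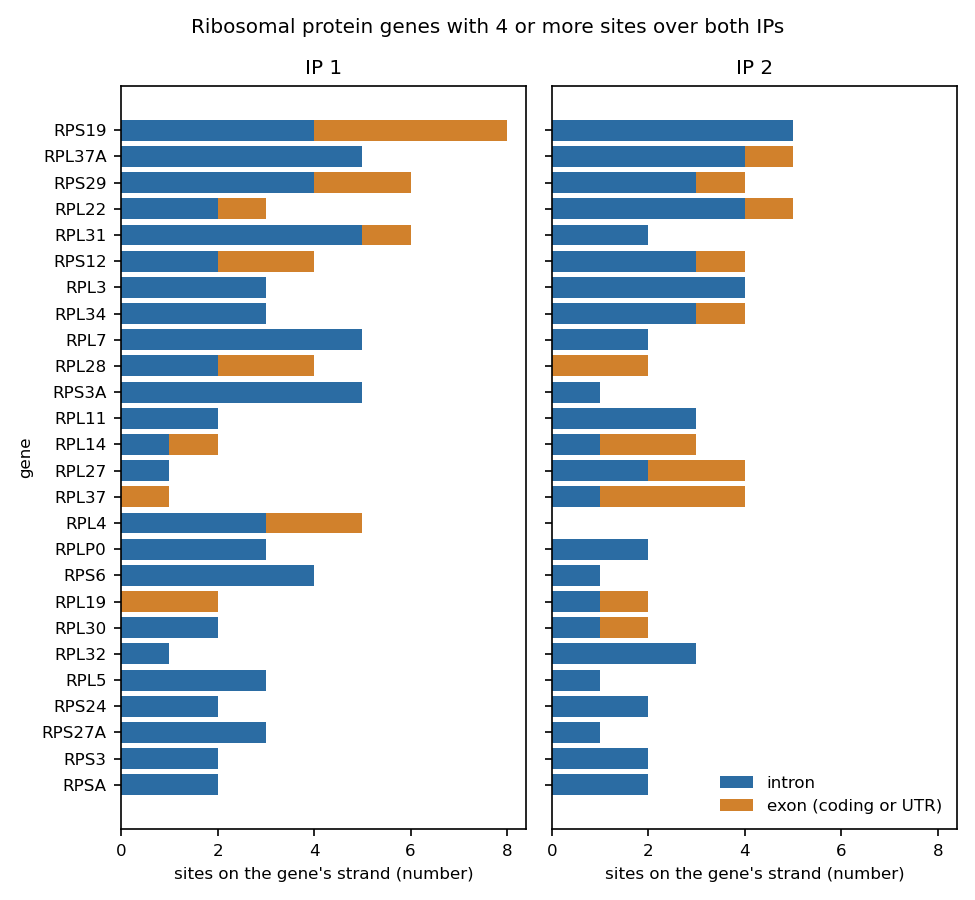
Sites on the strand of the gene (x axis, number) in IP 1 and IP 2 for the core genes with 4 or more sites over both IPs (y axis). Blue is intron and orange is exon (coding sequence or UTR) by the regions given in the deposited lists. RPS19 has the most sites, 8 in IP 1 and 5 in IP 2, and RPL4 has 5 in IP 1 and none in IP 2.

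Per gene, the counts were low. The median core gene had 1 sense site (a site on the strand of the gene) in each IP, and the highest counts were 8 in IP 1 and 5 in IP 2. Across the 77 genes the counts of the IPs were related with rho = 0.525 (Spearman) and r = 0.538 (Pearson) for all sense sites, and with rho = 0.357 and r = 0.271 for exon sites. These describe genes of unequal length in 2 libraries, and genes are not independent replicates.

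Among small subunit genes, RPS19 (chr19:41859918-41872926, plus strand), a protein needed for 18S ribosomal RNA maturation and altered in Diamond-Blackfan anemia, had 4 intron and 4 exon sites in IP 1 and 5 intron sites and no exon site in IP 2. The exon sites of IP 1 were pairs of neighbouring bases, 2 deleted coding bases with 2 of 14 tags mutated at each and 2 substituted 3′ UTR bases with 2 of 2. RPS19 is thus among the genes with the most sites in both IPs, but no base was listed on the same strand in both. Among protein-coding genes of its span bin, its sites per length stood at percentile 98.8 in IP 1 and 93.6 in IP 2. RPS29 (chr14:49570984-49599164, minus strand), a small zinc-binding protein, had 4 intron and 2 exon sites in IP 1 and 3 and 1 in IP 2. RPS12 (chr6:132814441-132817564, plus strand) had 2 intron and 2 exon sites in IP 1 and 3 and 1 in IP 2, at percentile 98.9 in each. It is the shortest of the 3 genes, at 3.12 kb, and 1 of its 5′ UTR bases, shown above, was listed in both IPs.

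In RPS3A and RPS6 the counts of the IPs were further apart. RPS3A had 5 intron sites in IP 1 and 1 in IP 2. Of the 5, 4 were neighbouring deleted bases with 2 of 7 tags mutated at each, which form 1 stretch. RPS6 had 4 intron sites in IP 1 and 1 in IP 2. RPS24, another gene altered in Diamond-Blackfan anemia, had 2 intron sites in each IP, and 1 of them (base 78039905 of chromosome 10, IP 2) had the most tags of any core site, 21, of which 4 were mutated.

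Among large subunit genes, RPL37A (chr2:216498189-216579180, plus strand), the longest core gene at 81.0 kb, had 5 intron sites in IP 1 and 4 intron sites and 1 3′ UTR site in IP 2. For its annotated span this is ordinary, at percentile 48.2 in IP 1 and 43.0 in IP 2. In the principal coding transcript, however, no intron held a site of IP 1, and in IP 2 only bases 216499269 and 216499624 lay in its introns. RPL22 (chr1:6185020-6209389, minus strand), an RNA-binding protein outside the core of the ribosome, had 2 intron and 1 exon sites in IP 1 and 4 and 1 in IP 2. All of these RPL22 sites also lie inside the gene AL031847.2 on the same strand. RPL31 (chr2:101001715-101024032, plus strand), which lies near the exit of the peptide tunnel, had 5 and 1 in IP 1 and 2 intron sites in IP 2. Of the IP 1 intron sites of RPL31, 3 were neighbouring deleted bases with 2 of 3 tags mutated at each.

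RPL3 (chr22:39312882-39320389, minus strand), whose protein reaches toward the peptidyl transferase centre, had 3 intron sites in IP 1 and 4 in IP 2 and no exon site, at percentiles 93.8 and 96.5. Its most mutated tags were in an insertion in IP 1, 5 of 5 at base 39314280, and in IP 2 in a substitution, 4 of 4 at base 39316976, and an insertion, 4 of 10 at base 39317460, which is 1 base from a splice site. RPL34 (chr4:108620566-108630412, plus strand) had 3 intron sites in IP 1 and 3 intron sites and 1 exon site in IP 2, at percentiles 90.0 and 93.2. RPL7, which contacts 5S ribosomal RNA, had 5 intron sites in IP 1 and 2 in IP 2, at percentiles 98.9 and 90.6. RPL28 (chr19:55385345-55403250, plus strand) had 2 intron and 2 exon sites in IP 1 and 2 exon sites in IP 2, at percentiles 83.1 and 64.0.

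The remaining genes with an exon site in both IPs had few sites each. RPL14 had 1 3′ UTR site in IP 1 and 2 in IP 2, all substitutions. RPL19 had 2 neighbouring deleted coding bases in IP 1, with 2 of 6 tags, and 1 in IP 2, with 2 of 9 tags, at another position. RPL37 had 1 3′ UTR substitution in IP 1, with 3 of 6 tags, and a 3′ UTR substitution and 2 coding insertions in IP 2. In 5 of the 8 genes the exon sites of the IPs were at different bases, and RPL22 and RPS12 were among those that shared one.

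The genes of the stalk, the flexible arm of the large subunit that recruits elongation factors, were also listed. RPLP0 had 3 intron sites in IP 1 and 2 in IP 2. RPLP1 had 2 intron sites in IP 1, of which 1 (base 69454178 of chromosome 15) was a substitution in 6 of 6 tags, and no site in IP 2. RPLP2 had a coding substitution in IP 2, in 3 of 7 tags, and no site in IP 1.

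Sites at the same base and strand in both IPs numbered 11, of which 10 were on the strand of the gene, in 9 genes. The lists assign the sites to genes, and 1 of the 10 lies beyond the annotated end of its gene, RPL22. The share of core genes with such a sense site was 11.7% (9 of 77, interval 5.49 to 21.0), against 14.1% of all protein-coding genes and 4.06% of genes of the same span. As a share of sites, the 11 were 8.40% of the core sites of IP 1 (interval 4.27 to 14.5) and 9.91% of those of IP 2 (5.05 to 17.0). The same shares over other protein-coding genes were 4.67%, inside the first interval, and 3.70%, below the second. Over other genes of the 3 shortest span bins (5917 genes) they were 6.36% and 5.39%, inside the intervals.

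**Figure D3:**
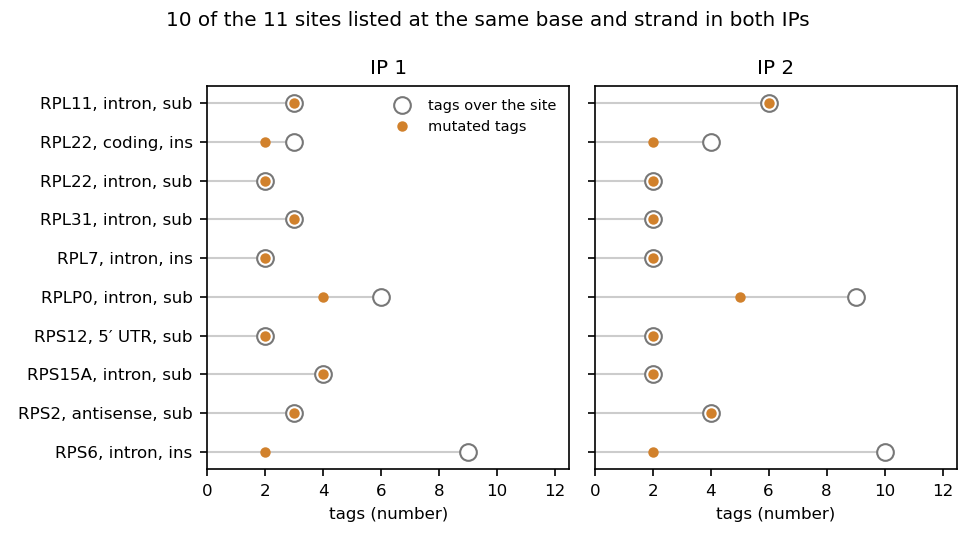
Tags over a site (open circles) and mutated tags (orange) on the x axis, in IP 1 and IP 2, for 10 of the 11 core sites listed in both (y axis, with gene, region and mutation type). At RPS6 the mutated tags were a minority, 2 of 9 in IP 1 and 2 of 10 in IP 2, while at RPL11, RPL31, RPS15A and RPS2 every tag was mutated in both IPs.

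At 7 of the 11 sites every tag was mutated in both IPs. The highest of these was intron 4 of RPL11, a substitution in 3 of 3 tags in IP 1 and 6 of 6 in IP 2, which is also the most mutated tags of any core site of IP 2. RPL31, intron 3, had a substitution in 3 of 3 and 2 of 2 tags, and RPS15A, a small subunit protein, had one in intron 4 in 4 of 4 and 2 of 2. RPS2, a protein of the messenger RNA entry channel, had a substitution on the opposite strand (base 1964629 of chromosome 16) in 3 of 3 and 4 of 4 tags, and was named in both IPs through this antisense site alone. A base that the lists call RPL22 intron, an RPL7 intron insertion and the RPS12 5′ UTR base had 2 of 2 tags in each IP, the minimum a list holds. That RPL22 base (6184749 of chromosome 1) lies beyond the annotated end of RPL22. It is inside the gene AL031847.2 on the same strand, which also holds the other RPL22 sites. Whether such bases differ from the reference in the DNA of HK-2 cells was not tested.

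At the remaining sites a part of the tags was mutated in both IPs. The RPLP0 base, in intron 4 and 7 bases from a splice site, was substituted in 4 of 6 tags in IP 1 and 5 of 9 in IP 2. The RPL22 coding insertion, in 2 of 3 and 2 of 4 tags, lies in a run of 8 A, as the letters above show. RPS6 had, in intron 2, an insertion in 2 of 9 and 2 of 10 tags. The RPS6 insertion lies 1 base from a splice junction.

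Insertions beside splice junctions recurred in other core genes. Of the insertions in sense, 10 of 16 in IP 1 (62.5%, interval 35.4 to 84.8) and 10 of 22 in IP 2 (45.5%, interval 24.4 to 67.8) lay within 5 bases of a junction of a coding transcript. In other protein-coding genes the shares were 12.7% and 12.4%, below both intervals. In other short genes they were 35.3%, just below the interval of IP 1, and 38.1%, within that of IP 2. Bases within 5 of a junction made up 1.32% of the core genes, 0.314% of other genes and 1.5% of other short genes. Core substitutions lay there at 1 of 60 sites in IP 1 (1.67%) and 2 of 63 in IP 2 (3.17%), near the share of bases. Core deletions lay there at 5 of 44 sites in IP 1 (11.4%, interval 3.79 to 24.6) and 0 of 17 in IP 2, which allows a share of up to 19.5%. In other genes the deletion shares were 0.431% and 0.271%, and in other short genes 0.642% and 0.978%. The 5 sites of IP 1 are not separate events, since they include neighbouring deleted bases in RPL7 and in RPS6.

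Beside RPS6, the genes included RPL37, with both of its coding insertions (3 of 5 and 2 of 7 tags, IP 2) at the first and last base of 1 exon, and RPL3 (4 of 10 tags, IP 2). RPL23, RPS23 and RPL8 had coding insertions there in IP 1, and RPS16 and RPL30 in IP 2. The 1 deletion with many mutated tags near a junction was in RPS14, a platform protein of the small subunit, in IP 1 only, where all 6 of 6 tags lacked a base 2 bases from the splice site of intron 3 (base 150446800 of chromosome 5). The lists do not give inserted letters. Reads that cross a junction are aligned in parts, and the part of that alignment in these insertions was not tested.

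Insertions, those beside junctions included, were a larger share of core sites than of other sites. Those beside junctions were 10 of 16 in IP 1 and 10 of 22 in IP 2, and the share without them was not computed. They made up 13.3% of core sense sites in IP 1 (interval 7.82 to 20.7) and 21.6% in IP 2 (14 to 30.8), against 6.42% and 6.33% in other protein-coding genes and 7.37% and 7.61% in other short genes. Deletions were 36.7% in IP 1 and 16.7% in IP 2, against 25.7% and 26.5%, so core genes stood above other genes in IP 1 and below them in IP 2. Substitutions were 50% and 61.8%, against 67.9% and 67.2%. Neighbouring deleted bases are listed 1 by 1, and the 44 deletion sites of IP 1 formed 27 stretches while the 17 of IP 2 formed 15. With each stretch counted as 1, deletions were 26.2% (interval 18.0 to 35.8) and 15% (8.65 to 23.5), against 18.2% and 18.7%, both within the intervals, and insertions were 15.5% and 22.0% against 7.07% and 7.01%.

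**Figure D4:**
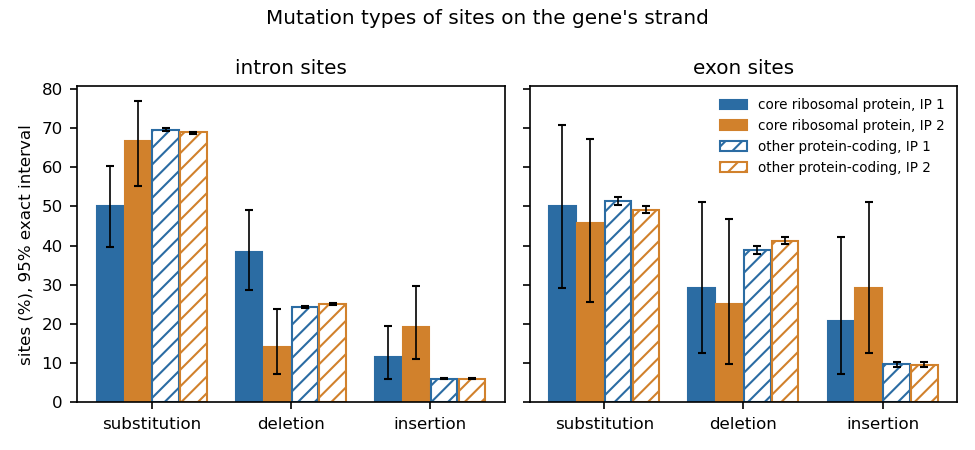
Share of sense sites that are substitutions, deletions or insertions (y axis, percent, bars from 0), in introns and exons, for core ribosomal protein genes (filled) and other protein-coding genes (hatched) in IP 1 (blue) and IP 2 (orange), with 95% exact intervals. Core intron insertions were 11.5% in IP 1 and 19.2% in IP 2, and core exon insertions 20.8% and 29.2%, with wide intervals from 24 exon sites in each IP.

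Over all regions, the share of mutated tags was lower at core sites than at other sites, with other short genes between. In IP 1, 65.0% of the 408 tags over core sense sites were mutated and in IP 2 62.0% of 387, against 80.8% and 80.3% in other protein-coding genes and 68.4% and 70.0% in other short genes. Every tag was mutated at 63.3% and 69.6% of core sites, against 84.8% and 84.0% in other genes and 77.7% and 78.3% in other short genes. By the listed regions, exons held a larger share of sites in other short genes than in core genes. Within introns the values of short and other genes were close. Sites with 2 of 2 tags mutated were 57.3% and 61.5% of core intron sites. In other short genes they were 79.2% and 77.2%, and in other protein-coding genes 79.8% and 78.0%. The median core site had 2 tags in each IP. Sites with 3 or more mutated tags numbered 14 of 120 in IP 1 and 20 of 102 in IP 2, so most values per site rest on the minimum count.

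By the regions in the deposited lists, introns held 80.0% of core sense sites in IP 1 and 76.5% in IP 2. Coding sequence held 9.17% and 11.8%, 5′ UTRs 2.50% and 3.92%, and 3′ UTRs 8.33% and 7.84%. Exons in all held 24 of 120 (20%, interval 13.3 to 28.3) and 24 of 102 (23.5%, 15.7 to 33.0). This was above the 9.34% and 8.76% of other protein-coding genes, which have longer introns, and below the 41.7% and 40.5% of other short genes. When the exons of all annotated transcripts placed the sites, exons held 53.3% and 56.9% of core sites and 56.1% and 53.4% of those of other short genes, so that gap was gone and IP 2 turned the other way. Sites antisense to a core gene were 8.40% and 8.11% of all its sites, against 11.1% and 15.2% in other genes and 17.9% and 21.0% in other short genes.

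Per length, the comparison of exons with introns depended on which transcripts define an exon. Many core genes have noncoding transcripts with retained introns, whose bases the lists call intron. With sites placed by the exons of all annotated transcripts, core exons had 0.227 sites per kb in IP 1 and 0.206 in IP 2, against 0.108 and 0.116 in other short genes. Core introns then had 0.122 and 0.0958 per kb, against 0.0701 and 0.0844, and the ratio of exon to intron density in core genes was 1.86 and 2.15. With exons of coding transcripts alone, core genes had 0.206 and 0.20 sites per kb of exon and 0.148 and 0.118 per kb of intron, a ratio of 1.39 and 1.69. Other short genes then had 0.104 and 0.114 per kb of exon and 0.0767 and 0.0897 per kb of intron. The regions in the deposited lists, set over the exon and intron lengths of all transcripts, gave a core ratio of 0.408 and 0.502, on the other side of 1. This reading mixes definitions of an exon, and it counts intron sites in RPL13 and RPL23, which have no intron base outside an exon of some transcript. Its core values were 0.0852 per kb of exon in each IP, against 0.0800 and 0.0882 in other short genes, and 0.209 and 0.170 per kb of intron, against 0.0932 and 0.108. Core introns had the higher value under all 3 readings, by little in IP 2 under the first, and core exons under the first and second. These densities carry no interval.

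Within introns, the share of sites near splice sites was above the share of length there. In the principal transcript, 29.5% of intron sites in IP 1 (interval 19.7 to 40.9) and 21.1% in IP 2 (12.3 to 32.4) lay within 50 bases of a splice site, where 11.6% of the intron length lies. These sites include the intron insertions and deletions beside junctions described above. The share without them was not computed, so no excess apart from them is shown. The same share over other genes is not given here. First introns held 16.7% and 15.5% of intron sites, against 22.8% of the length, which is inside both intervals. Another core site lay within 50 bases at 38 of 120 sites in IP 1 (31.7%) and 10 of 102 in IP 2 (9.80%). This difference includes the neighbouring deletions of IP 1, and the share over other genes is not given here.

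The snoRNAs hosted by these introns held few sites. The core genes hold 60 snoRNA and related small RNA genes, in 28 of the 77, on 1.23% of the intron bases. Inside them lay 2 of 96 intron sites of IP 1 (2.08%, interval 0.253 to 7.32), in SNORD83A within RPL3 and SNORD14A within RPS13, and 0 of 78 of IP 2, which allows a share of up to 4.62%. Both shares were within counting error of the share of bases.

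Many ribosomal protein genes have processed pseudogenes, copies of the spliced messenger RNA elsewhere in the genome. Of 24 core exon sites in each IP, 9 in IP 1 (37.5%, interval 18.8 to 59.4) and 7 in IP 2 (29.2%, 12.6 to 51.1) had a window of 31 bases found exactly in an annotated transcript of another gene, and 5 in each had it in a pseudogene transcript. The same share over exon sites of other genes was not computed, so copies are not shown to be particular to core genes. The window of the RPL22 coding insertion was found in 1 other gene and no pseudogene. That site lies inside AL031847.2 on the same strand, and whether the copy is the same locus was not tested. The window of the RPS12 5′ UTR base was found in no other gene. How the lists assign reads that match several places is not given in the sources used here, so exon sites with a copy are uncertain as to their gene. At 4 bases, in RPL28, RPS12, RPS19 and RPS3A, a core base was listed on both strands, with all tags mutated on each. In RPS12 both strands were in the list of IP 2, and in the other genes the strands were in different IPs. Whether the libraries keep the strand is not given in the sources used here, and antisense sites may hold sense reads.

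Of the 14 further genes under the rule, 4 were named in both IPs (28.6%, interval 8.39 to 58.1), against 55.4% of all protein-coding genes and 43.7% of those of the same span, both inside the interval. RPL39L, a paralog of RPL39 on a 60.0 kb gene, had 9 intron sites in IP 1 and 5 in IP 2, while RPL39 itself had none. RPL7L1, a paralog of RPL7, had 3 3′ UTR sites and 1 intron site in each IP and was the 1 further gene with exon sites in both. The readthrough gene RPS10-NUDT3 had 1 sense site in IP 1 and 4 in IP 2. The IP 1 site and those at bases 34422738 and 34424005 of chromosome 6 in IP 2 also lie inside RPS10, on its strand. RPS19BP1, a binding partner of RPS19, had an antisense site in each IP and 1 sense site in IP 2. RPL26L1 (2 sites) and RPL36A-HNRNPH2 (1 site) were in IP 1 alone and RPS27L (1 site) in IP 2 alone. RPL10L, RPL17-C18orf32, RPL22L1, RPL36AL, RPL3L, RPS4Y1 and RPS4Y2 had none.

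**Figure D5:**
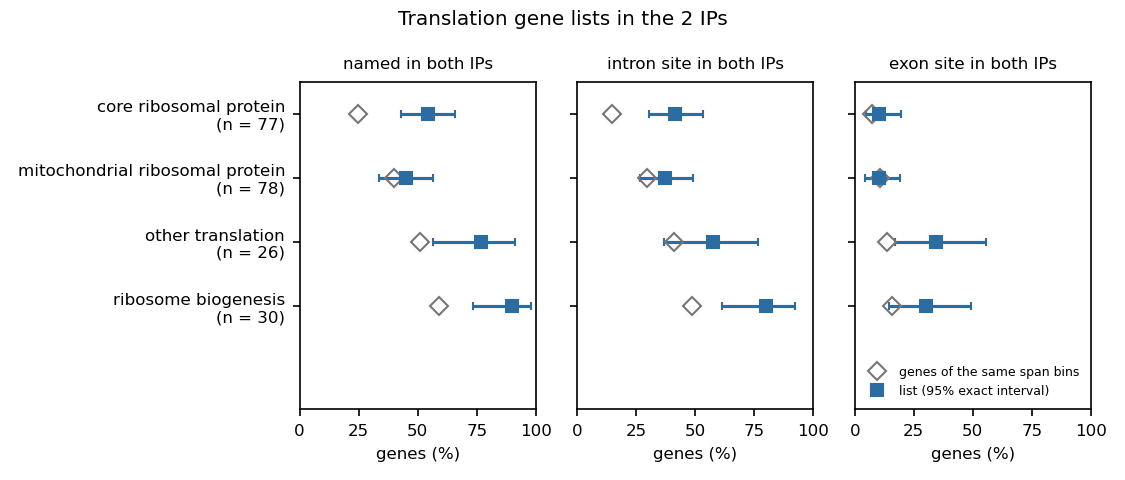
Share of genes (x axis, percent) named in both IPs, with an intron site in both and with an exon site in both, for 4 gene lists (y axis). Squares are the list with 95% exact intervals and open diamonds are all protein-coding genes of the same span bins. Intron and exon follow the regions given in the deposited lists, and these shares were not computed under other definitions of an exon. Core ribosomal protein genes stand apart from the diamond for named genes and intron sites. For exon sites the interval includes the diamond.

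Other gene lists of translation are given beside these values. Of 78 mitochondrial ribosomal protein genes, 35 were named in both IPs (44.9%, interval 33.6 to 56.6), against 40.0% of genes of the same span. Those with the most sense sites were MRPS6 (24 in IP 1 and 18 in IP 2), MRPL37 (13 and 15) and MRPL1 (8 and 16). Core cytoplasmic and mitochondrial ribosomal protein genes had exon sites in both IPs at 10.4% and 10.3%. Genes of the same span were at 7.35% and 10.8%, each inside the interval of its list. Of 26 other translation genes, 20 were named in both (76.9%, 51% of the same span), led by LARP4, which protects poly(A) tails (18 and 24 sense sites), the initiation factor subunit EIF3H (14 and 25) and the growth kinase MTOR (17 and 21). Of 30 ribosome biogenesis genes, 27 were named in both (90.0%, interval 73.5 to 97.9, 59.1% of the same span), led by POLR1A, the largest subunit of RNA polymerase I (18 and 20), RRP12 (9 and 18) and WDR43 (14 and 13), both factors of pre-ribosome maturation. In these last 2 lists, exon sites in both IPs were found at 34.6% (interval 17.2 to 55.7) and 30.0% (14.7 to 49.4) of genes. The share was 14.6% over all protein-coding genes and 13.8% and 15.6% over those of the same span. The interval of the biogenesis genes includes their same-span share. The difference between lists was not tested.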

How the data were processed

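RNA from 2 PARP1 IPs of HK-2 cells was analysed, with 1 list of sites for each, and the 2 inputs were not analysed here. The submitters' processing notes name bcl2fastq, TopHat2 and build GRCh38. Not given in the sources used here are the site caller, its thresholds and how duplicates were treated. At each base the deposited lists hold counts of tags and of mutated tags, and the authors gave each site an FDR (a q-value) and a region, per the file headers. Genes, spans (10 bins of equal number), exons, snoRNAs and letters came from GENCODE release 29. The planned search of the genome for copies was made in its transcripts, since no genome was used here.

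Sites were counted per gene in Python 3.11.15 with pandas 2.3.3, and intervals came from SciPy 1.17.1 (exact, 95%). No test was run. Counting, matching and run detection were tested on simulated data. Percentiles rank sense sites per length within a span bin, with ties at their mean rank. The members and lists were chosen with earlier results of these data known. Genes were named for shared sites, exon sites in both IPs, the 10 highest counts, the 4 longest genes without a site, the most mutated tags and the top 3 of each further list. RPS3A, RPS6, RPS24, RPLP1, RPLP2, RPS14, the junction measure and the comparison with other short genes were chosen after values were seen. Alternatives varied the FDR, tags, strand, region, span, window and IP. Values of some genes and letters that the naming takes are not reported here.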

Additional observations from a re-analysis of the deposited data

Results flagged for a closer look

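Sites were also listed in genes that the comparisons above do not use, the pseudogenes of ribosomal proteins. IP 1 listed 68 sites in them and IP 2 listed 59, and they are given for that reason alone, since any such number is above what a count of 0 allows and there is no control IP to set beside them. Of these, 46 and 36 were exon sites. The sites fell in 52 of the 1065 annotated pseudogenes of ribosomal proteins. Of the 52, 13 had a site in both IPs, and 9 sites were at the same base and strand in both. The share over other pseudogenes was not computed.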

How the results depend on the processing

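Of the alternatives tried, 26 left a value within its interval, 11 moved it and 1 reversed its side of 1. The share of core genes named in both IPs (54.5%) was 29.9% at sites whose FDR was below the list's most common one, 11.7% with 3 or more mutated tags and 10.4% from exon sites alone, each of which uses fewer sites. Genes of the same span were at 24.7% over all sites and at 7.35% over exon sites, and were not computed under the other filters. A single IP named 64.9% to 67.5%. Without sites inside another gene of the same strand, a choice made after seeing the data, it was 49.4%. The exon share over both IPs (21.6%) was 55.0% when any annotated transcript defined an exon, and the ratio of exon to intron density (0.450) was 1.52 with exons of coding transcripts only. The share of sites of IP 1 also in IP 2 (8.40%) was 26.7% (4 of 15 sites) with 3 or more mutated tags in both, and the cause was not tested. The share of substitutions (55.4%) was 21.3% with an FDR below the most common, a filter that removes substitutions in 2 of 2 tags, 47.9% in exons, and 60.6% with neighbouring deletions joined, also chosen after seeing the data. Windows with a copy fell from 33.3% to 14.6% with 51 bases. The share of intron sites in snoRNAs (1.15%) was 0% to 2.08% in single IPs. No paired analysis was possible because the inputs that share numbers with the IPs were not analysed here. Most sites have 2 mutated tags, the fewest a list holds, which limits each value.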
